A study of Arabidopsis thaliana with 21 samples.

Results

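Cuticular wax and very-long-chain lipid genes were examined here as a group of 10 loci among the 33655 features of an Arabidopsis seedling count table. The members were the condensing enzymes *KCS1* (AT1G01120), *KCS2* (AT1G04220), *KCS5* (AT1G25450), *KCS6* (AT1G68530) and *KCS20* (AT5G43760), the wax genes *CER1* (AT1G02205), *CER2* (AT4G24510), *CER3* (AT5G57800) and *WSD1* (AT5G37300), and the acyl-CoA synthetase *LACS2* (AT1G49430). They were chosen by name together with the values of *spaQ* and *cop1-4* against Col-0 in red light, so their differences between those genotypes are given below as a description, with no test. The rule of choice named no values of the *phyB-GFP* lines, and the members were tested there, although earlier results of these data were known when they were chosen.

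The study asked how the photoreceptor phyB and the SPA and COP1 proteins act together on gene expression in early red light. All seedlings were 3 days old, grown in the dark after germination had been induced and far-red light given, and were taken either from the dark or after 1 h of red light. Each of the 7 groups had 3 libraries, 21 in all: Col-0 (wild type), the *cop1-4* mutant and the *spaQ* mutant, which lacks functional SPA1, SPA2, SPA3 and SPA4, sampled under red light, and 2 transgenic lines, *phyB-GFP FL* and *phyB-GFP ΔC*, each sampled both from the dark and from red light. Both *phyB-GFP* lines carry a *PHYB* transgene in a *phyA phyB* double mutant, and in ΔC the transgene lacks the C-terminal end of phyB, through which it binds SPA1. The *cop1-4* allele is a weak one, and each line stands for its construct through the plants of that line alone. Dark-grown libraries were used for the transgenic lines only, and those of the other genotypes were not analysed here. The labels do not say whether libraries of a group came from separate cultures, so p-values measure the spread between these libraries, which may be technical.

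Libraries held 15678019 to 29523833 counts. The floor of detection was set at 3 counts, which equals 0.0947 to 0.204 CPM (counts scaled to library size) after scaling with TMM factors (trimmed mean of M values, which make the bulk of genes comparable between libraries). Replicates of a group differed from each other beyond sampling noise, with a mean chi-square per gene of 2.09 to 30.7, and the highest values came from the pairs that include *phyB-GFP FL* red replicate 3, so results that rest on this library are also given without it. *SPA1* was at 43.6 ± 2.1 CPM in *spaQ* and 339 ± 6.5 in Col-0 (SD, n = 3), *SPA3* was at 26.8 ± 1.7 and 163.6 ± 4.7, and *SPA2* and *SPA4* RNA was not lower in *spaQ*, at 54.6 ± 3.3 against 51.0 ± 3.5 CPM and 71.7 ± 2.5 against 57.0 ± 1.3 CPM. *COP1* was at 41.1 ± 1.5 CPM in *cop1-4* and 74.5 ± 2.1 in Col-0, and *PHYB* reads lay between 873 and 1432 CPM in the *phyB-GFP* lines against 145.4 ± 4.2 in Col-0. The epidermal markers *ATML1*, *PDF2* and *PDF1* were all detected, as was every member in Col-0.

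The cuticle is the lipid layer that covers the epidermis of shoots. Its waxes are made from very-long-chain fatty acids: a long-chain acyl-CoA synthetase such as LACS2 activates the fatty acid, a 3-ketoacyl-CoA synthase (KCS) joins further carbon units to it as the first and rate-limiting step of each elongation round, and CER2-type proteins let KCS6 reach the longest chains. CER1 and CER3 then work as a pair that makes alkanes, while WSD1 joins fatty alcohols and acids into wax esters. Several of these genes are known targets of MYB transcription factors such as MYB96, MYB94 and MYB30.

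Promoters are shown for the members on which the results below turn: *WSD1* and *KCS1*, and the alkane partners *CER1* and *CER3*, which parted in the mutants. Each is the 250 bases before the annotated start of the gene in RefSeq's TAIR10.1, written 5′ to 3′ on the strand of the gene. Capitals mark matches to any of the motifs searched on both strands. These were CACGTG (the G-box bound by light-regulated factors such as PIFs and HY5), CACATG (the PBE-box, bound by PIFs) and the ACGT core that the G-box contains. The last was TAAATGNA, a loosened form of the L1 box, which epidermal homeodomain factors such as ATML1 and PDF2 bind.
*WSD1* (chr5:14767176-14767425, plus strand): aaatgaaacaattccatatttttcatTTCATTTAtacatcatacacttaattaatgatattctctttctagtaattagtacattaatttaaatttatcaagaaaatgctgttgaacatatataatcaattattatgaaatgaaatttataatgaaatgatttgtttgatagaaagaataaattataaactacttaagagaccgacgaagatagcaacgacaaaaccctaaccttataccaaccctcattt
*KCS1* (chr1:59216-59465, minus strand): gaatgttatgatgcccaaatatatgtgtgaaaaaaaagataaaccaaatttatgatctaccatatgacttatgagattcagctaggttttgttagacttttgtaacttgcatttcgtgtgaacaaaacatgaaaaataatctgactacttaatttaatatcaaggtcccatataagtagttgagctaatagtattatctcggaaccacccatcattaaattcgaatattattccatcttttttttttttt
*CER1* (chr1:418166-418415, plus strand): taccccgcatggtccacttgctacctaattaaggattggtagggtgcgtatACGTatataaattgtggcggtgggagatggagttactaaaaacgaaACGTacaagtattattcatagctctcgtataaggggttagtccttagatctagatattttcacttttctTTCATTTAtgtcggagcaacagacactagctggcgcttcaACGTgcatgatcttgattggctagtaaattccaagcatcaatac
*CER3* (chr5:23419934-23420183, plus strand): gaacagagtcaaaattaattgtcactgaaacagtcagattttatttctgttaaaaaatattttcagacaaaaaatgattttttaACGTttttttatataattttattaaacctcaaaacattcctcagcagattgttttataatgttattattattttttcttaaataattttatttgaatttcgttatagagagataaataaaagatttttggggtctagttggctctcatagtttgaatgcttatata

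All 10 members had a promoter among the 27443 protein-coding promoters of this length. The G-box was found in 0 of the 10 and in 6.49% of all promoters, the PBE-box in 1 (*CER2*) and in 11.1% of all, and an ACGT core in 5 (*KCS6*, *CER1*, *CER2*, *CER3* and *LACS2*) and in 44.1% of all. The loosened form of the L1 box was found in *WSD1*, 224 to 217 bases before the start, and in *CER1*, 84 to 77 bases before it. It was found in 9.91% of all promoters. Both matches read TTCATTTA on the strand of the gene, and a match to the loosened form is not by itself an L1 box. These matches describe the letters in this window only.

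*WSD1* (chr5:14767426-14770396, plus strand, 11 exons) had no read in any library of either mutant. It stood at 24.5, 24.2 and 23.6 CPM in the 3 Col-0 libraries, from 528, 513 and 570 counts, and at 0 in the 3 *cop1-4* and the 3 *spaQ* libraries, which together held 54187666 and 68497308 counts. With the floor of 3 counts per library in place of the zeros, *WSD1* was at least 156-fold lower in *spaQ* and at least 128-fold lower in *cop1-4*. The 2 mutants could not be compared with each other for this gene, since both were under the floor.

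*CER1* (chr1:418416-422579, plus strand, 19 exons), the alkane-forming enzyme, came next. Col-0 held 366, 368 and 350 CPM, *cop1-4* 16.22, 18.03 and 14.43 CPM, and *spaQ* 5.403, 5.004 and 6.6 CPM. The 3 genotypes did not overlap, and the log2 fold change against Col-0 was -5.99 ± 0.08 (SE) in *spaQ* and -4.46 ± 0.07 in *cop1-4*, that is 63.7-fold and 22.1-fold lower. Its partner *CER3* (chr5:23420184-23424117, plus strand, 11 exons) was not lower: 296, 282 and 299 CPM in Col-0, 339, 317 and 346 CPM in *cop1-4*, and 376, 346 and 364 CPM in *spaQ*. Its log2 fold changes were 0.31 ± 0.05 and 0.20 ± 0.05, and 0.06 and 0.002 when libraries were scaled by their totals alone, a scaling that brought the median of all genes to -0.24 in *spaQ* and -0.20 in *cop1-4*.

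The ratio of the partners within a library does not depend on scaling. As a percent of *CER3* counts, *CER1* lay between 117% and 131% for wild-type libraries, 4.17% and 5.68% for *cop1-4* and 1.44% and 1.81% for *spaQ*. In the *phyB-GFP* lines the ratio stayed between 107% and 150% in all 12 libraries, dark or red.

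**Figure D1:**
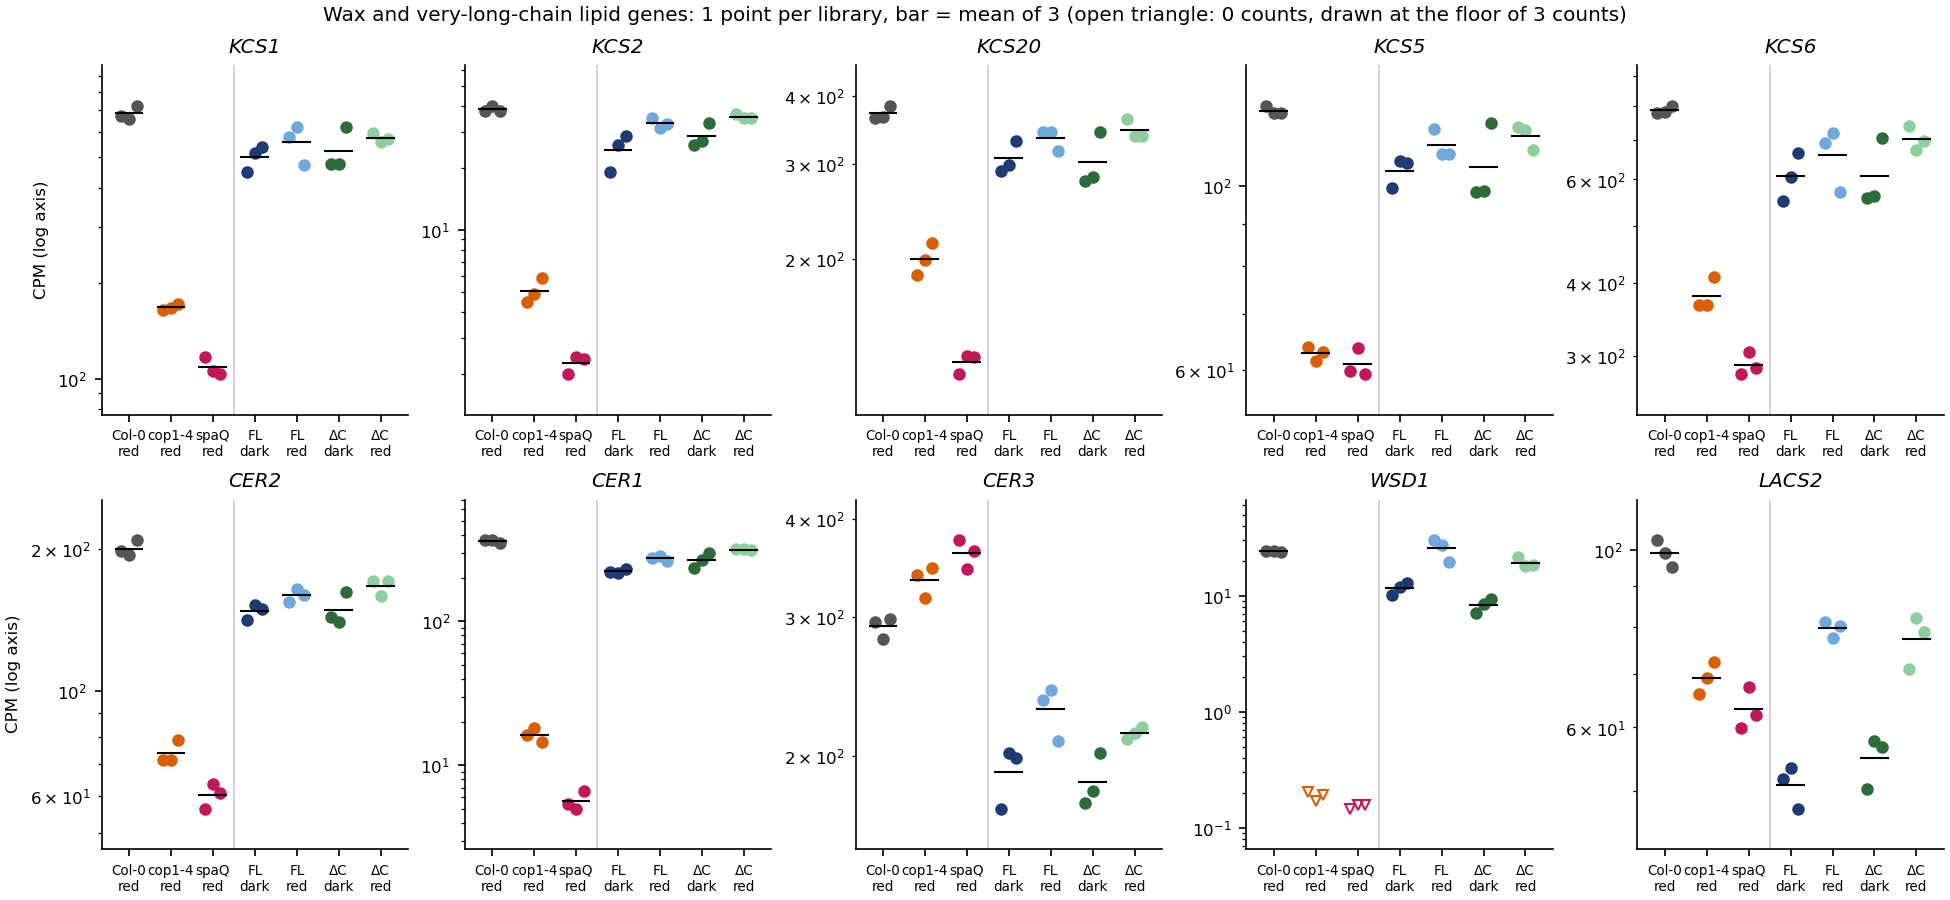
Level of each of the 10 genes in CPM (log axis) in the 7 groups, 1 point per library and a bar at the mean of 3, with open triangles for libraries at 0 counts, drawn at the floor of 3 counts. *WSD1* was at 0 in all 6 mutant libraries, *CER1* averaged 361 CPM in the wild type, against 16.2 for *cop1-4* and 5.67 for *spaQ*, and *CER3* was the one gene with higher means in both mutants than in Col-0.

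Among the condensing enzymes, *KCS1* (chr1:57164-59215, minus strand, 1 exon), a broadly acting elongase of waxes and membrane lipids, was at 674, 659 and 725 CPM in Col-0, at 164, 166 and 172 CPM in *cop1-4* and at 117, 106 and 103 CPM in *spaQ*. For *KCS1* the log2 fold change was -2.66 ± 0.06 in *spaQ* (6.31-fold lower) and -2.03 ± 0.05 in *cop1-4* (4.07-fold lower). *KCS2* (chr1:1119699-1122786), known with its near copy *KCS20* for root suberin and wax, was at 37.7, 40.1 and 37.8 CPM in Col-0, at 4.48, 4.88 and 5.82 CPM in *cop1-4* and at 1.996, 2.423 and 2.376 CPM in *spaQ*. Its change was larger than that of *KCS1*, at -4.09 ± 0.10 in *spaQ* and -2.92 ± 0.09 in *cop1-4*. *KCS20* (chr5:17585523-17588733) ranged over 364 to 384 CPM in the wild type, 187 to 214 CPM in *cop1-4* and 122 to 132 CPM in *spaQ*, with log2 fold changes of -0.89 ± 0.05 and -1.53 ± 0.05.

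*KCS2* and *KCS20* are 84.2% identical over 1554 aligned coding bases, with a longest shared run of 53 bases, so a part of their reads could be assigned to either. As a percent of *KCS20* counts, *KCS2* lay between 9.83% and 11.0% for wild-type libraries, 2.40% and 2.72% for *cop1-4* and 1.63% and 1.84% for *spaQ*, with no overlap between the genotypes. *KCS2* also overlaps the genes AT1G04210 and AT1G04247 on the other strand, and the strand mode of the counting is not given in the sources used here.

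*KCS6* (chr1:25712414-25715024), also called *CER6* and the main elongase of shoot waxes, was at 780, 782 and 801 CPM in Col-0, at 367, 367 and 409 CPM in *cop1-4* and at 280, 306 and 286 CPM in *spaQ*. Its log2 fold changes were -1.04 ± 0.05 and -1.44 ± 0.05. Its near copy *KCS5* (81.2% identical, longest shared run 23 bases) was at 122 to 125 CPM in Col-0 and at 61.4 to 63.8 and 59.2 to 63.6 CPM in the mutants, changes of -0.97 ± 0.05 in *cop1-4* and -1.02 ± 0.05 in *spaQ*. The 2 mutants overlapped for *KCS5* and not for *KCS6*.

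*CER2* (chr4:12660687-12662656), the elongation partner of KCS6, was at 194 to 209 CPM in Col-0, 71.4 to 78.8 CPM in *cop1-4* and 56.4 to 63.7 CPM in *spaQ*. Its log2 fold changes were -1.43 ± 0.05 and -1.73 ± 0.05. As a percent of *KCS6* counts, *CER2* lay between 24.8% and 26.1% for wild-type libraries, 19.3% and 19.5% for *cop1-4* and 20.2% and 21.3% for *spaQ*, so this pair parted far less than *CER1* and *CER3*. *CER2* overlaps AT4G24520 and AT4G07275 on the other strand. *LACS2* (chr1:18290942-18295905), which activates fatty acids for cutin, was at 95.2 to 103 CPM in Col-0, 66.0 to 72.4 CPM in *cop1-4* and 59.9 to 67.4 CPM in *spaQ*, with changes of -0.51 ± 0.05 and -0.65 ± 0.05.

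**Figure D2:**
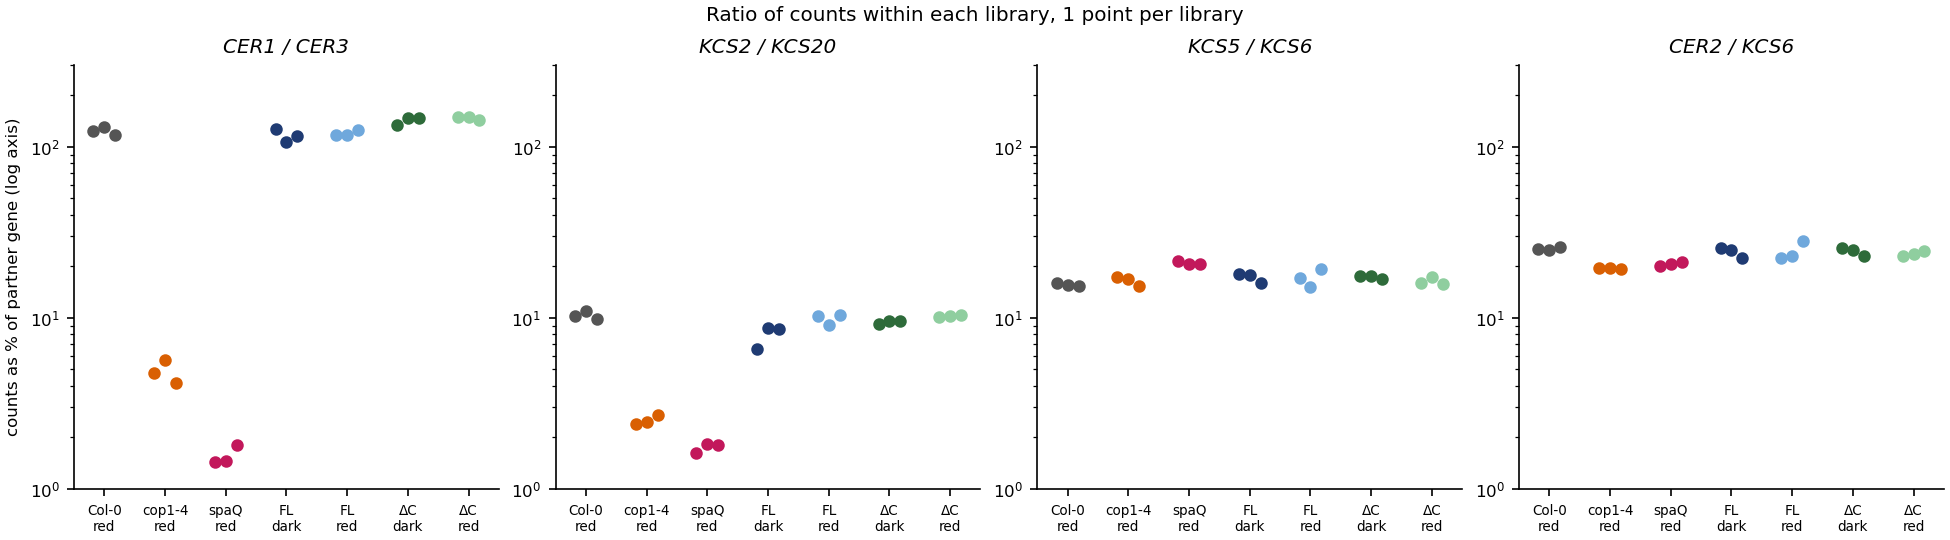
Counts of 1 gene as a percent of the counts of its partner or near copy in the same library (log axis), 1 point per library, in the 7 groups. *CER1* relative to *CER3* and *KCS2* relative to *KCS20* were far lower in the 6 mutant libraries than in the other 15, while *KCS5* relative to *KCS6* stayed between 15.2% and 21.4% and *CER2* relative to *KCS6* between 19.3% and 28.0%.

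In all, 8 of the 10 members were over 2-fold lower in *spaQ* (17.5% of all 20396 genes tested) and 6 of 10 in *cop1-4* (13.2% of all genes), counts that the choice of the members fixed. With libraries scaled by their totals alone the count in *cop1-4* was 8, since *KCS5* and *KCS20* lay just inside 2-fold. The median member log2 fold change, with *WSD1* at its bound, was -1.63 in *spaQ* and -1.24 in *cop1-4*, beside medians of 0.01 and 0.003 over all genes. Between the mutants, *CER1* (-1.53 ± 0.10) and *KCS2* (-1.17 ± 0.15) were over 2-fold lower in *spaQ* than in *cop1-4* (6.17% of all genes), and the other members with reads lay between -0.65 and 0.11.

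The order of the members per kilobase of exon showed the same shift. In Col-0, *KCS1* stood highest at 334 CPM per kb, followed by *KCS6* at 302, *KCS20* at 168, *CER2* at 123, *CER3* at 113 and *CER1* at 101. *KCS5* at 58.7, *LACS2* at 34.5, *KCS2* at 18.9 and *WSD1* at 11.7 CPM per kb made the lower part. In *spaQ*, *CER3* stood highest at 140 CPM per kb, followed by *KCS6* at 111, *KCS20* at 58.0 and *KCS1* at 53.0, whereas *CER1* at 1.58 and *KCS2* at 1.11 CPM per kb were the lowest with any reads.

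Markers of the epidermis, where the waxes are made, were lower as a sum in both mutants, and *PDF1* fell the most of them. The summed level of *ATML1*, *PDF2* and *PDF1* was 1056 to 1125 CPM in Col-0, 539 to 596 CPM in *cop1-4* and 337 to 345 CPM in *spaQ*. *PDF1* alone made 722 ± 27 CPM of the sum in Col-0. None of the 3 was at 0: *PDF1*, which encodes a protein of the epidermal cell wall, fell in *spaQ* (log2 fold change -2.70, adjusted p = 1.02e-23, edgeR's quasi-likelihood test) and in *cop1-4* (-1.46, 1.80e-18), while the epidermal regulators *PDF2* (-0.91 and -0.45) and *ATML1* (-0.52 and -0.14) stayed under the 2-fold limit. Of 5 markers of stomata, 2 rose in each mutant (15% of all genes were called higher in *spaQ* and 10.7% in *cop1-4*) and none fell. The sum of the stomatal markers was 24.1 to 26.4 CPM in Col-0, 57.4 to 58.6 CPM in *cop1-4* and 44.7 to 45.8 CPM in *spaQ*. Of 5 root markers, *CASP1* and *MYB36*, genes of the endodermis, fell in both mutants and the root hair genes *EXPA7* and *COBL9* (*SHV2* in RefSeq) rose in both. The remaining marker, *SCR*, also a gene of the endodermis, was at 0.20 in *spaQ* and 0.21 in *cop1-4*, under the 2-fold limit. The sum of all 5 was 304 to 321 CPM in Col-0 and 149 to 179 CPM over the mutants. *CASP1* alone made 216 ± 8.0 CPM of the sum in Col-0. The part of these markers in the members' values was not tested, and in whole seedlings fewer cells of a type and less RNA per cell cannot be told apart.

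The other genes of the pathway, 77 loci in 8 lists that leave out the members, were tested in the same fit (edgeR's quasi-likelihood test, adjusted p under 0.05 and over 2-fold). Reads sufficed for 59 of them. In *spaQ*, 22 fell (17.5% of all genes were called lower) and 5 rose (15% of all genes were called higher), with a list median of -0.72. In *cop1-4*, 15 fell (13.1% of all genes) and 7 rose (10.7%), with a list median of -0.50. The 22 include *FAR4*, *GPAT5*, *FAR5*, *CYP86B1* and *MYB106*, each with at most 8 counts in a *spaQ* library. They also include *CER4* and *CYP86A1*, with at most 13 and 20 counts and a lowest *spaQ* library at 0.422 CPM for each. All of these could pass the filter on low counts only through genotypes where they were higher. Their calls are therefore no support for a fall of the pathway. *MYB106*, with at most 6 counts in a *cop1-4* library, and *GPAT5*, with at most 12, are also among the 15, and the same limit holds there. All 15 that fell in *cop1-4* also fell in *spaQ*, and all 5 that rose in *spaQ* rose in *cop1-4*. The overlap of the mutants over all genes is not given here, so these counts describe the lists and are not a trait of the pathway. Both comparisons share the Col-0 libraries.

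The lists differed from each other in these counts. The shares of all genes that belong beside each list are 17.5% lower and 15% higher in *spaQ*, and 13.1% lower and 10.7% higher in *cop1-4*. Of the 5 genes beside the condensing step of the elongase, *CER10* (enoyl-CoA reductase, -1.55 in *spaQ* and -1.11 in *cop1-4*) and *PAS2* (the dehydratase, -1.32 and -1.36) fell in both mutants, and *KCR1* (the ketoacyl reductase) fell in *spaQ* (-1.29) and was at -0.95 in *cop1-4*. AT3G23840, an HXXXD-type acyl-transferase of the family of CER2, rose in both (1.962 and 1.668). Of 10 other KCS genes with enough reads, *KCS3* fell in both mutants (-2.002 and -1.53), *KCS12* fell in *spaQ* (-1.82), *KCS13* rose in both (1.71 and 1.275) and *KCS8* rose in *cop1-4* (1.41).

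Of the 5 genes of wax synthesis and export with enough reads, *CER4*, the reductase that makes the primary alcohols used by WSD1, fell in *spaQ* (log2 fold change -3.96, 15.6-fold, adjusted p = 2.78e-16) and in *cop1-4* (-2.86, 7.24-fold, 4.88e-14). Its level was 8.35 ± 0.26 CPM in Col-0, 0.527 ± 0.11 in *spaQ* and 1.14 ± 0.11 in *cop1-4*. With at most 13 counts in a *spaQ* library, *CER4* could pass the filter on low counts only through genotypes where it was higher. Its call in *spaQ* is therefore no support for a fall. *LTPG1*, a lipid transfer protein of wax export, fell in both (-1.24 and -1.08). Of 5 other WSD1-like genes with enough reads, none was called lower in either mutant. AT3G49210 came nearest, at -0.70 in *spaQ* (adjusted p = 5.05e-12) and -0.89 in *cop1-4* (1.16e-13), which passed the test and missed the 2-fold limit. AT5G16350, a WSD1-like O-acyltransferase, rose in *spaQ* (1.79, adjusted p = 1.68e-16) and in *cop1-4* (1.52, 2.26e-14). AT5G53380, of the same family, rose in *cop1-4* (1.235, 6.03e-05). Of 7 other LACS genes, *LACS3* alone was called, lower in *spaQ* (-2.01).

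Cutin is the polyester that the waxes are embedded in. Of 10 cutin genes with enough reads, 4 fell in each mutant (17.5% of all genes were called lower in *spaQ* and 13.1% in *cop1-4*). In each mutant 1 rose, which is not above the share of all genes called higher (15% and 10.7%). *CYP86A4*, a hydroxylase of cutin acids, fell in *spaQ* (-3.74, adjusted p = 1.62e-21) and in *cop1-4* (-3.46, 1.74e-20). Its level was 49.6 ± 3.3 CPM in Col-0, 3.71 ± 0.40 in *spaQ* and 4.46 ± 0.92 in *cop1-4*. *BDG1*, a hydrolase needed for cuticle formation, fell in both (-2.72 and -2.40), as did *HTH* (-1.88 and -2.02) and *CYP86A2*, another hydroxylase (-1.27 and -1.01). *CYP77A6*, a midchain hydroxylase of cutin acids, rose in both (1.24 and 1.745).

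Of 7 genes of suberin, the related polyester of root and seed coat, all 7 were called lower in *spaQ* (17.5% of all genes) and 3 in *cop1-4* (13.1%). Of the 7, *FAR4*, *GPAT5*, *FAR5* and *CYP86B1* had at most 8, 4, 4 and 7 counts in a *spaQ* library, and so could pass the filter on low counts only through genotypes where they were higher. *CYP86A1*, with a lowest *spaQ* library at 0.422 CPM, could also pass only in that way. The calls of these genes are therefore no support for a change of the list as a whole. *FAR1* (AT5G22500), here the fatty acid reductase that makes suberin alcohols, was at 332 ± 6.1 CPM in Col-0, 12.8 ± 1.9 in *spaQ* and 6.87 ± 0.45 in *cop1-4*. It fell in both, with log2 fold changes of -4.695 (adjusted p = 1.02e-26) and -5.59 (8.46e-27). *FAR4*, a reductase of the same family, fell in *spaQ* (-3.48, adjusted p = 5.19e-12) and was at -0.66 in *cop1-4*. The other calls in *cop1-4* were *RWP1* and *GPAT5*. *GPAT5*, at 0.317 to 0.680 CPM in *cop1-4*, could pass the filter only through Col-0, so its call there is no support for a change.

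Of 10 regulators that passed the filter, 4 were called in both mutants, 1 of them (*MYB106*) on too few reads to weigh. *MYB96*, an activator of wax genes, fell in *spaQ* (-1.82, adjusted p = 9.14e-17) and in *cop1-4* (-1.43, 1.90e-14). Its level was 60.03 ± 3.5 CPM in Col-0, 17.0 ± 1.6 in *spaQ* and 22.1 ± 3.7 in *cop1-4*. *MYB30*, another activator of very-long-chain fatty acid genes, fell likewise (-1.84 and -1.34, adjusted p = 7.395e-21 and 7.15e-18), with levels of 112 ± 5.0, 31.3 ± 1.2 and 44.2 ± 1.1 CPM. *MYB106*, a MYB factor of cuticle and trichomes, was called lower in both on few reads, so no fold or p-value is given. It was at 0.51 to 0.80 CPM in Col-0, with 1 count in each *spaQ* library and 1 to 6 counts in the *cop1-4* libraries. It could pass the filter on low counts only through Col-0, so its calls are no support for a change. AT5G61590, an ERF-type factor that the annotation names only as an Integrase-type DNA-binding protein, rose in both (1.75 and 2.04, adjusted p = 1.11e-19 and 8.35e-21), with levels of 22.5 ± 1.6 CPM in Col-0, 76.0 ± 3.4 in *spaQ* and 91.9 ± 0.6 in *cop1-4*.

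**Figure D3:**
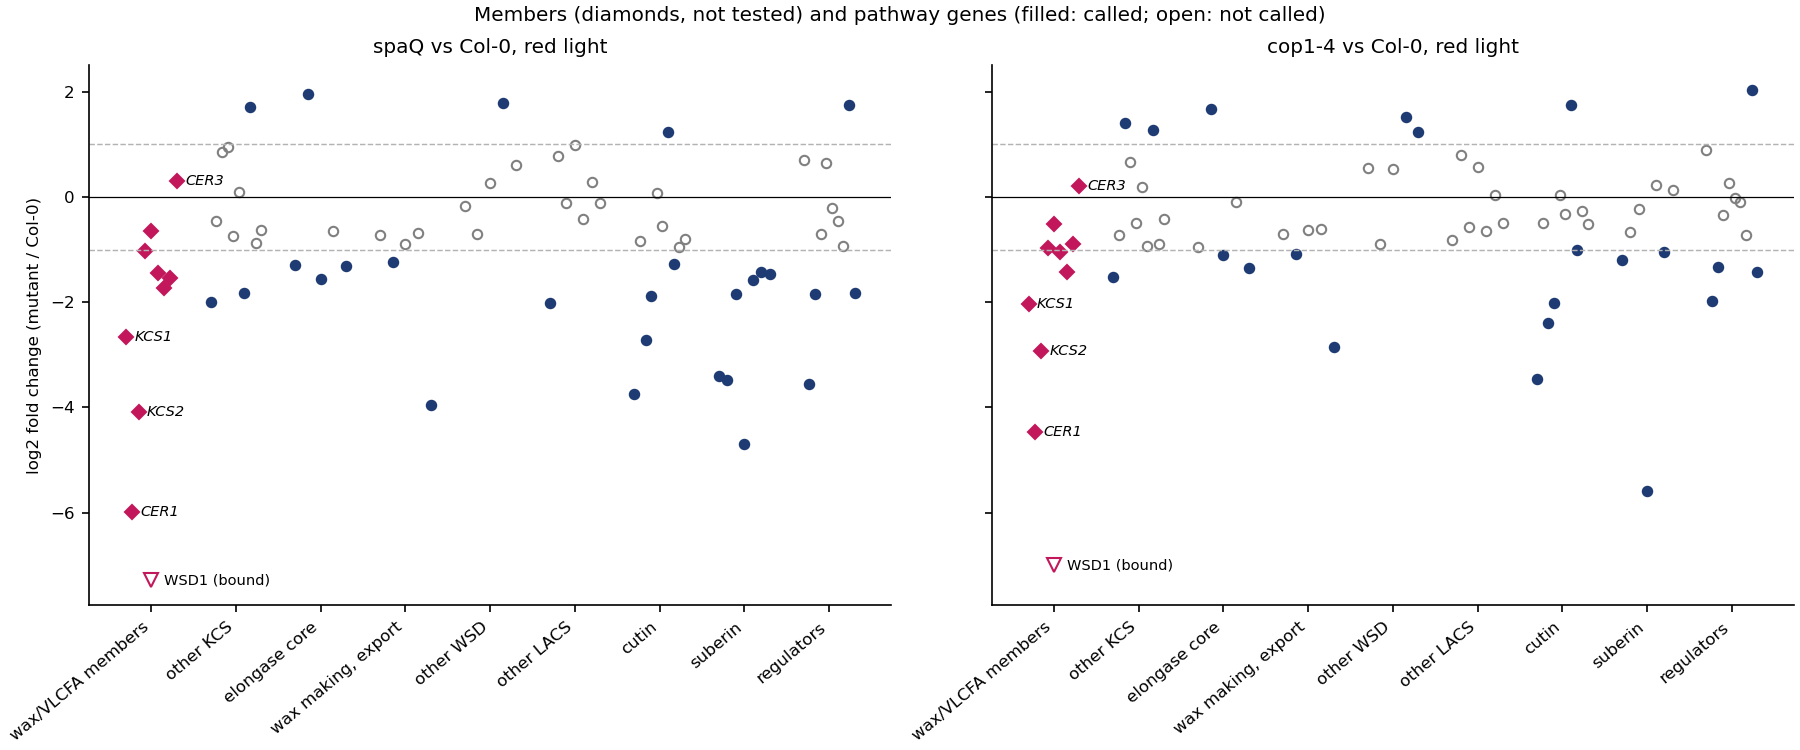
Log2 fold change of *spaQ* (left) and *cop1-4* (right) against Col-0 in red light for the members (diamonds, not tested, with *WSD1* as an open triangle at its bound) and for 8 lists of other lipid genes (filled points called, open points not called, dashed lines at 2-fold). The 7 suberin genes, 4 of them with fewer than 10 counts in every *spaQ* library, lie below the lower line in *spaQ*, while the other WSD and LACS genes spread on both sides of 0.

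In the *phyB-GFP* lines the question was which members respond to 1 h of red light, and whether the C-terminal end of phyB changes that response. *WSD1* rose in both lines. It was at 10.2, 11.9 and 12.8 CPM in FL dark and at 30.3, 27.1 and 19.6 CPM in FL red, and at 7.11, 8.40 and 9.36 CPM in ΔC dark and 21.4, 17.9 and 18.4 CPM in ΔC red. In each line all 3 red libraries lay above all 3 dark ones. The log2 fold change was 1.12 ± 0.16 in FL (2.18-fold, adjusted p = 2.32e-04) and 1.21 ± 0.16 in ΔC (2.32-fold, 2.21e-04), by edgeR's quasi-likelihood test over 20459 genes. Over the 14 other ways of processing, the change stayed between 0.98 and 1.28 in FL and between 1.11 and 1.30 in ΔC, with adjusted p at most 0.00366 and 0.00246.

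*LACS2* rose in both lines by less. It was at 51.7, 53.4 and 47.5 CPM in FL dark and at 81.3, 77.5 and 80.4 CPM in FL red, and at 50.3, 57.7 and 56.7 CPM in ΔC dark and 70.9, 82.1 and 79.0 CPM in ΔC red. The groups did not overlap in either line. Its log2 fold change was 0.63 ± 0.07 in FL (1.55-fold, adjusted p = 4.36e-05) and 0.49 ± 0.07 in ΔC (1.41-fold, 6.13e-04), the second of which passed the test and missed the 1.5-fold limit of a call.

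Members called were thus *WSD1* and *LACS2*, 2 of 10, in FL (3.28% of all genes were called higher and 1.72% lower) and *WSD1*, 1 of 10, in ΔC (1.59% higher and 1.3% lower). All 10 had a positive log2 fold change in both lines, with medians of 0.19 in FL and 0.20 in ΔC beside -0.003 and -0.007 over all genes. The other 8 did not pass. *CER1* was at 216 to 231 CPM in FL dark and 261 to 283 CPM in FL red, a log2 fold change of 0.28 ± 0.08 with adjusted p = 0.0533, and at 0.24 ± 0.08 in ΔC with 0.15. *KCS2* was at 0.41 ± 0.13 (0.0698) and 0.31 ± 0.12 (0.264), and *CER3* at 0.25 ± 0.09 (0.105) and 0.20 ± 0.09 (0.297). *KCS1*, *KCS5*, *KCS6*, *KCS20* and *CER2* lay between 0.08 and 0.13 in FL and between 0.12 and 0.21 in ΔC, and their 95% intervals reached from -0.12 to 0.37 in FL and from -0.11 to 0.43 in ΔC. In ΔC the intervals of *KCS20* (0.01 to 0.37) and *CER2* (0.02 to 0.30) lay above 0. Neither gene passed edgeR's quasi-likelihood test there (adjusted p = 0.395 and 0.325).

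Single libraries set much of the spread of the elongase genes. *KCS1* was at 577, 619 and 471 CPM in FL red and at 474, 475 and 620 CPM in ΔC dark. *KCS6* was at 692, 719 and 571 CPM in FL red and at 558, 563 and 705 CPM in ΔC dark. Thus replicate 3 was the lowest of FL red and the highest of ΔC dark for both genes. All the other members except *LACS2*, that is *KCS20*, *KCS5*, *KCS2*, *CER2*, *CER1*, *CER3* and *WSD1*, were also highest in replicate 3 of ΔC dark. Without FL red replicate 3, *CER1* passed in FL with a log2 fold change of 0.315 and adjusted p = 0.036, and *CER3* with 0.308 and 0.0314, both under the 1.5-fold limit, while *KCS1* was at 0.24 (0.267) and *KCS6* at 0.195 (0.359). Without ΔC dark replicate 3, *CER1* passed in ΔC with 0.335 and 0.0306, under the 1.5-fold limit, and *KCS1* was at 0.267 (0.346), *KCS6* at 0.325 (0.177), *KCS20* at 0.294 (0.0822) and *KCS5* at 0.22 (0.126).

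**Figure D4:**
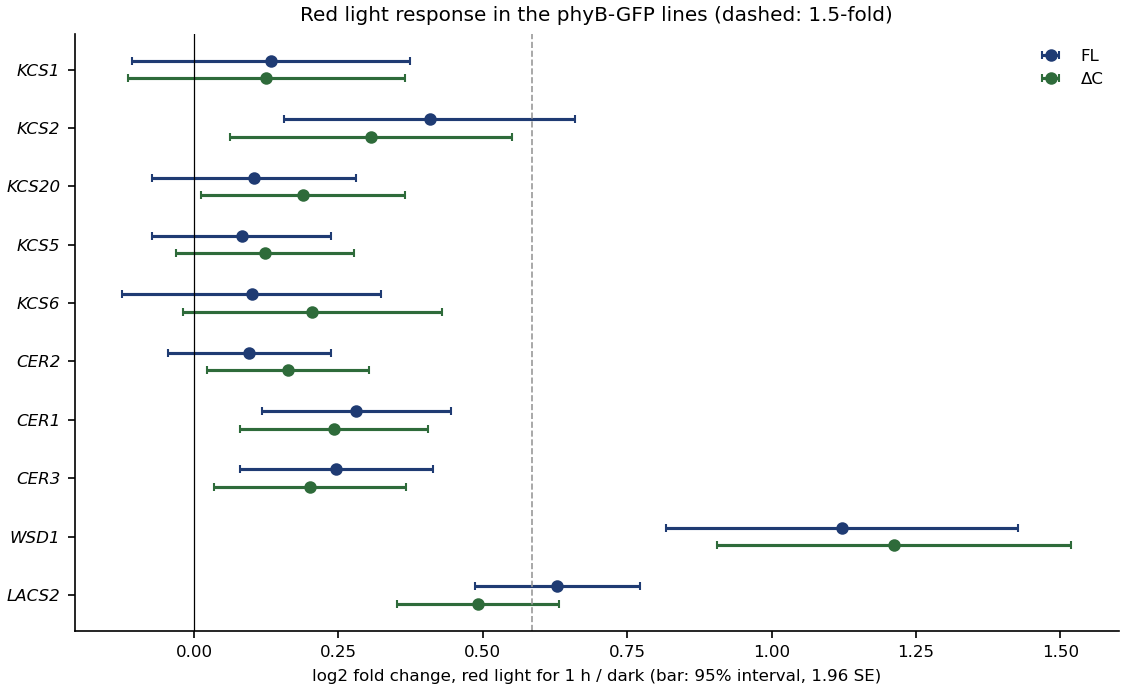
Log2 fold change of red light against dark for each of the 10 genes in *phyB-GFP FL* (blue) and *phyB-GFP ΔC* (green), with bars for the 95% interval and a dashed line at 1.5-fold. *WSD1* (1.12 and 1.21) and *LACS2* (0.63 and 0.49) have the highest estimates in both lines, and the intervals of the lines overlap for every gene.

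The response did not differ detectably between the lines for any member. The interaction of line and light was called for 0 of 10 members (0.103% of all genes), with adjusted p = 0.999 for each of them, none at an unadjusted p under 0.05, and 0 also by DESeq2. For *WSD1* the response in ΔC minus that in FL was 0.09 on the log2 scale with a 95% interval of -0.34 to 0.52, and for *LACS2* -0.14 with an interval of -0.34 to 0.06. Over the members the estimates lay between -0.14 and 0.10.

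Levels were also compared between the lines at the same light. In the dark, 0 of 10 members were called (1.19% of all genes) by edgeR and by DESeq2, with 2 at an unadjusted p under 0.05, *WSD1* at -0.51 ± 0.16 (adjusted p = 0.158) and *CER1* at 0.24 ± 0.08 (0.194). In red light, 0 of 10 were called (1.67% of all genes) by either tool, again with *WSD1* (-0.42 ± 0.15, 0.171) and *CER1* (0.21 ± 0.08, 0.233) at an unadjusted p under 0.05. Without FL red replicate 3, the lower level of *WSD1* in ΔC in red light was -0.58 with adjusted p = 0.0202, just under the 1.5-fold limit. The other 8 members differed by at most 0.21 between the lines at either light.

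Of the 63 other lipid genes with enough reads in these libraries, 2 rose in FL (3.28% of all genes were called higher), 2 rose in ΔC (1.59% of all genes) and none fell in either, so the share in FL was near that of all genes. The list medians were 0.05 and 0.08. In FL both were regulators. *MYB16*, a MYB factor of cuticle formation, rose from 9.69 ± 1.3 to 27.0 ± 5.3 CPM, a log2 fold change of 1.45 ± 0.15 (adjusted p = 1.58e-05), and in ΔC from 11.98 ± 0.38 to 21.7 ± 3.5 CPM, 0.85 ± 0.14 (0.00207). *MYB96* rose in FL by 0.60 ± 0.10 (0.00172) and was at 0.58 ± 0.10 in ΔC (0.00324), under the 1.5-fold limit. The second gene in ΔC was *GPAT5*, an acyltransferase of suberin synthesis, which rose by 1.18 ± 0.31 (0.0445) from 1.30 ± 0.79 to 3.01 ± 0.17 CPM and was at 1.27 ± 0.53 in FL (0.195). The calls of *MYB96* in FL and of *GPAT5* lie close to their limits: without FL dark replicate 2 or FL red replicate 1 the count in FL was 1, and without ΔC dark replicate 1 the count in ΔC was 1. *FAR1*, the suberin reductase, stood at -0.54 in FL and -0.51 in ΔC (2.70e-04 and 7.94e-04), also under the limit. The summed epidermal markers were at 999 to 1061 CPM in FL dark and 991 to 1103 CPM in FL red, and at 1111 to 1222 and 1111 to 1149 CPM in ΔC, so dark and red libraries overlapped in both lines. The summed stomatal markers were at 23.5 to 28.9 CPM in FL dark and 28.5 to 39.6 CPM in FL red, and at 31.4 to 42.2 and 33.1 to 41.0 CPM in ΔC. *SPCH*, which starts the stomatal lineage, was called higher in FL red (0.75 ± 0.18, 1.68-fold, adjusted p = 0.0166) and was at 0.34 ± 0.16 in ΔC (0.39). The part of these markers in the red light response of the members was not tested.

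Across all 7 groups the order of *KCS1* was Col-0 (686 ± 35 CPM), ΔC red (572 ± 20), FL red (555 ± 77), ΔC dark (523 ± 84), FL dark (499.8 ± 45), *cop1-4* (168 ± 4.3) and *spaQ* (109 ± 7.4). Neighbouring *phyB-GFP* groups overlapped with each other in this order, while ΔC red (555 to 594 CPM) lay above FL dark (449 to 537 CPM). No *phyB-GFP* group overlapped with Col-0 (659 to 725 CPM) or with *cop1-4* (164 to 172 CPM). The order of *WSD1* was FL red (25.7 ± 5.5 CPM), Col-0 (24.1 ± 0.4), ΔC red (19.3 ± 1.9), FL dark (11.6 ± 1.3) and ΔC dark (8.29 ± 1.1), with both mutants at 0. FL red overlapped with both Col-0 and ΔC red, and the other neighbours in this order did not overlap. Both overlaps came from FL red replicate 3 (19.6 CPM), and the other FL red libraries (30.3 and 27.1 CPM) lay above all libraries of Col-0 and ΔC red. Col-0 and the *phyB-GFP* lines differ in genotype, so these orders are descriptions.

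By the correlation of mean log2 CPM over the 7 groups, 18922 genes with a mean of at least 1 CPM were compared with *KCS1* and *WSD1*. The 3 nearest to *KCS1* were AT5G01830 (an ARM repeat protein, given the symbol *SAUR21* in RefSeq), *RGLG1* (a RING domain ligase) and AT1G32090 (annotated as an early dehydration-response protein), with r of at least 0.9987. The 3 nearest to *WSD1* were *GulLO4* (AT5G56490, a lactone oxidase), AT3G45310 (a cysteine proteinase) and AT4G22820 (an A20/AN1-like zinc finger protein), with r of at least 0.9956. AT5G01830 was at 38.4 CPM in Col-0 and 10.4 in *spaQ*, and *GulLO4* at 2.57 and 0.018. The 7 means fall into 2 mutants and 5 other groups, and *KCS1* and *WSD1* share the same libraries with every gene compared. Among the members themselves, *KCS1*, *KCS2*, *KCS5*, *KCS6*, *KCS20*, *CER1*, *CER2* and *WSD1* correlated with each other at 0.937 or more, *LACS2* correlated with *KCS1* at 0.272, and *CER3* at -0.751. The means of the 2 mutants, by which the members were chosen, enter these correlations, so they are a description only.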

How the data were processed

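Counts of 21 libraries from Arabidopsis seedlings were analysed (7 groups of 3, taken from the labels). Per the submitters' notes, FastQC served for read quality, TopHat with Bowtie2 for alignment (TAIR10) and HTSeq for counting, and the authors deposited the resulting counts per gene without normalization; the strand mode is not given in the sources used here. Columns without a sample: 0.

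The members and gene lists were chosen with earlier results of these data known. edgeR 4.0.16 (R 4.3.3) was used with TMM factors, filterByExpr by group, quasi-likelihood tests and Benjamini-Hochberg adjustment over all genes: 1 fit of the 9 libraries of the mutants and their wild type (20396 genes) and 1 of the 12 *phyB-GFP* libraries (20459 genes). A call needed adjusted p under 0.05 and a fold over 2 (mutants) or 1.5 (*phyB-GFP* lines); the interaction had no fold limit. CPM used TMM factors over all 21 libraries, per kb by union exon length of RefSeq's TAIR10.1. Intervals of log2 fold changes are 95% (normal). Floors and intervals of counts cover counting error only. SE values and fold changes come from the fits, SD values from CPM. Tests were checked on simulated counts.

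Named genes were the 10 members, the 4 called pathway genes with the largest and the 4 with the smallest fold change in each of 4 comparisons (mean of at least 1 CPM), regulators called in both mutants, markers, genotype checks and the 3 genes most like *KCS1* and *WSD1*. *LTPG1*, *LACS3*, AT5G53380, AT3G49210, *RWP1*, *FAR5*, *CYP86B1*, *CYP86A1*, *GPAT5* (in the mutants), *KCS3*, *KCS8*, *KCS12*, *KCR1*, *PAS2*, *CER10*, *HTH* and *CYP86A2* were named after their values were seen, to complete list counts. The suberin genes were compared between the lines, and their alternatives added, after the data were seen. Alternatives were DESeq2 1.42.0, median-of-ratios factors, library size alone, other filters (at least 1 count, or 10 counts in every library), a replicate block, other fits, other fold limits and leaving out each library. Promoters were read from TAIR10.1 and coding sequences aligned with Biopython 1.88.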

Additional observations from a re-analysis of the deposited data

How the results depend on the processing

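Counts of members called were 2 in FL red against dark and 1 in ΔC red against dark under every alternative with the same limits, leaving out each library included. They changed with the fold limit alone: ΔC gave 2 with no fold limit, and both lines gave 0 with the limits as the study's methods write them (1.5 on the log2 scale, 2 for the mutants). Members over 2-fold lower were 8 in *spaQ*, with 7 to 8 over the alternatives (7 without *spaQ* replicate 3), and 6 in *cop1-4*, with 5 to 8. The lowest counts came with at least 10 counts in every library, where *WSD1* could not be fitted. Pathway genes called were 27 in *spaQ* and 22 in *cop1-4*, and 54 and 51 with no fold limit, 9 and 6 with the methods' limit, 20 and 19 with at least 10 counts in every library, and 27 to 29 and 21 to 24 when a library was left out. In the *phyB-GFP* lines the 2 calls per line became 9 with no fold limit and 0 with the methods' limit. Leaving out a library gave 1 to 2 in FL (1 without FL dark replicate 2 or FL red replicate 1) and 1 to 3 in ΔC (1 without ΔC dark replicate 1), and the filter of 10 counts in every library gave 1 in ΔC.

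Replicate numbers are shared between groups, but no 2 groups had all 3 correlations of the deviations of same-numbered libraries over 0.1, so the numbers were not taken as pairs. These correlations ran from -0.537 to -0.0459 between FL dark and FL red, -0.0182 to 0.0558 between ΔC dark and ΔC red, 0.081 to 0.26 between FL dark and ΔC dark, -0.125 to 0.384 between FL red and ΔC red, 0.0753 to 0.181 between Col-0 and *cop1-4* and -0.0692 to 0.0193 between Col-0 and *spaQ*. With a replicate block the pathway genes called in ΔC were 1, and members called stayed at 2 in FL and 1 in ΔC. Scaling by library size alone turned no member's direction in the mutants; it moved the share of lower calls among all calls from 53.9% to 67.3% in *spaQ* and from 55.2% to 67.7% in *cop1-4* (3059 higher and 3571 lower became 2182 and 4499, and 2173 and 2677 became 1618 and 3399).

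Differences near 0 between the lines changed sign. In the dark, *KCS5* was at 0.00346 with DESeq2, 0.00353 with median-of-ratios factors, 0.00654 with library size alone, 0.00301 with every gene of at least 1 count and 0.00934 in 1 fit of all 21 libraries, and *CER2* at 0.000132, 0.000289, 0.00355 and 0.00633 with DESeq2, median-of-ratios factors, library size alone and the fit of all 21. With a library left out, values in the dark ran from -0.0896 to 0.12 for *KCS1*, -0.0973 to 0.0495 for *KCS5*, -0.133 to 0.0701 for *KCS6*, -0.141 to 0.0325 for *KCS20* and -0.0723 to 0.0423 for *CER2*; in red light from -0.0629 to 0.139 for *KCS1*, -0.00238 to 0.168 for *KCS6* and -0.0808 to 0.00935 for *LACS2*; and for the interaction from -0.114 to 0.133 for *KCS1*, -0.226 to 0.0504 for *KCS2*, -0.00474 to 0.137 for *KCS5*, -0.116 to 0.0538 for *CER1*, -0.107 to 0.0299 for *CER3* and -0.0736 to 0.234 for *WSD1*. The cause of these changes was not tested. Depth limits the bound on *WSD1* in the mutants to the floor of 3 counts per library.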

Other observations

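Suberin genes were compared between the *phyB-GFP* lines after the data had been seen. In the dark all 7 had a positive log2 fold change of ΔC against FL, and 2 of the 7, beside 1.19% of all genes, passed edgeR's quasi-likelihood test and the 1.5-fold limit, *GPAT5* (2.02 ± 0.46, adjusted p = 0.0393) and *FAR4* (1.14 ± 0.23, 0.0255). *GPAT5*, an acyltransferase, was at 0.288, 0.258 and 0.424 CPM in FL dark and 0.731, 2.21 and 0.972 CPM in ΔC dark, from 6 to 8 and 22 to 70 counts. With so few counts in FL dark, it could pass the filter on low counts only through groups where it was higher. The call of *GPAT5* in the dark is therefore no support for a difference of the list. *FAR4*, a fatty acid reductase, was at 1.97, 1.503 and 2.44 CPM in FL dark and 3.62, 5.49 and 3.85 CPM in ΔC dark. In red light all 7 were again positive and *GPAT5* alone was called, beside 1.67% of all genes (1.93 ± 0.36, 0.0119), with 0.574 to 1.02 CPM in FL and 2.87 to 3.19 CPM in ΔC.

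These calls were not stable. The count in the dark was 0 with a replicate block, 1 with at least 10 counts in every library, with only the groups compared or with the methods' fold limit, and 0 to 2 when a library was left out (0 without FL dark replicate 1 or 2, or without ΔC dark replicate 2 or 3). The count in red light was 0 with at least 10 counts in every library, 3 with DESeq2 or 1 fit of all 21 libraries, and 0 to 3 when a library was left out (0 without ΔC red replicate 3, 3 without FL red replicate 1).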
